A study of Mus musculus with 24 samples.

Results

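The genes of the proteasome were followed across wild-type and Atf4 knockout neurons with and without an oxidative insult. They were taken as every array probe whose annotated symbol begins with Psma, Psmb, Psmc, Psmd, Psme or Psmg and a number. The rule found 62 probes of 45 genes among 23978 probes on the array. Of these, 51 probes of 39 genes were detected (score above 0.95) on 4 or more of the 24 arrays. Psmd8 is described apart, because its values on the first chip differed from those on the other chips, and this left 50 probes of 38 genes. Of those 50 probes, 42 were detected on all 24 arrays. The other 11 probes were not kept, 9 of them detected on no array, and 6 genes had no probe left. Nearest the threshold, probe 2 of Psme4 was kept with 4 arrays and Psmc6 was not kept with 2. Psmc3ip and Psme3ip1 met the rule by name, but they encode proteins that are not proteasome subunits. Their probes stay among the 50 in every count below.

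The proteasome degrades proteins that carry ubiquitin chains. Its barrel-shaped 20S core is built of alpha rings, which gate the entry, and beta rings, which hold the proteolytic sites. The 19S cap recognises ubiquitin chains, removes them and unfolds the substrate with a ring of ATPases, while alternative activators (PA28 and PA200) open the core without the cap. Immune signals can replace the catalytic beta subunits with inducible ones, and in neurons the proteasome takes part in synaptic protein turnover and in the removal of oxidised proteins.

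The cells were mouse embryonic cortical neurons, either wild type (WT) or Atf4 knockout (KO). ATF4 is a transcriptional activator that cells make more of during the integrated stress response. Cultures were left untreated or given HCA (homocysteate), a glutamate homolog that impairs cystine uptake and depletes glutathione. The sources used here give no dose, exposure time, mouse strain or age. There were 8 untreated WT arrays, 8 untreated KO arrays, 4 WT arrays with HCA and 4 KO arrays with HCA, read on Illumina Mouse Ref-8 arrays. The labels do not say whether replicates came from separate cultures or animals, so the spread behind a p-value may be technical.

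The arrays lay on 3 chips of 8. On chip 1 there were 4 untreated WT and 4 untreated KO arrays, and chips 2 and 3 each held 2 arrays of all 4 groups. The mean raw signal per array was 745 to 983 on chip 1, 342 to 537 on chip 2 and 296 to 669 on chip 3, and 36.6% to 47.9% of probes were detected. The targeted gene matched the labels: Atf4 lay at log2 levels of 9.52 to 10.61 on the WT arrays and 4.72 to 5.29 on the KO arrays, where it was detected on 0. Of 8 neuronal marker genes on the array 6 were measured, while Snap25 and Nefl were detected on no array. WT untreated replicate 2, on chip 1, stood apart, with a limma array weight of 0.40, and WT HCA replicate 1 had a weight of 0.46. In WT untreated replicate 2 the 50 proteasome probes had a median of -0.16 (log2) against the mean of the other 3 WT arrays of chip 1, the 20S core probes -0.29, and all 11847 tested probes 0.02. It was the lowest of these 4 arrays for 29 of the 50 probes (58%), against 33.4% of all probes.

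Levels below are background-corrected, quantile-normalized log2 intensities, and differences are log2 differences from limma with a term for chip. They are followed by the standard error (SE) and, where given, the 95% interval. A call means a limma p that, adjusted over all 11847 tested probes by the Benjamini-Hochberg method, was under 0.05. Because RNA came from whole cultures, fewer cells of a type and less RNA per cell cannot be told apart. The comparisons share arrays, so their errors are shared.

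Without HCA, few proteasome probes were called between KO and WT. Of the 50 probes 0 were higher and 2 were lower in the KO by limma's test, or 4%, while 10.3% of all tested probes were called (4.84% higher and 5.51% lower). The lower probes belong to Psme1, an alpha subunit of the PA28 activator, and to Psmd2, a scaffold subunit of the cap base. In all, 10 probes had an unadjusted p under 0.05, which is 20%, against 25.4% of all probes. The median difference was -0.05 over the 50 probes and 0.02 over all probes, and when arrays were centred on their medians instead these were 0.01 and 0.07. The 95% interval lay within 1.5-fold in both directions for 46 of the 50 probes (92%), compared with 89.8% of all probes.

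With HCA in both genotypes, 2 probes were higher and 1 was lower in the KO by the same test. That is 6% of the proteasome probes, with 17.9% of all tested probes called (9.01% higher and 8.93% lower). Psmg3, a chaperone of core assembly, and 1 probe of Psmb10, the inducible beta2i subunit, were higher, and the same Psme1 probe was lower again. At an unadjusted p under 0.05 there were 14 probes (28%), against 31.3% of all. The median difference was -0.04, against 0.03 over all probes. The interval lay within 1.5-fold for 46 probes (92%), compared with 67.7% of all probes.

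**Figure D1:**
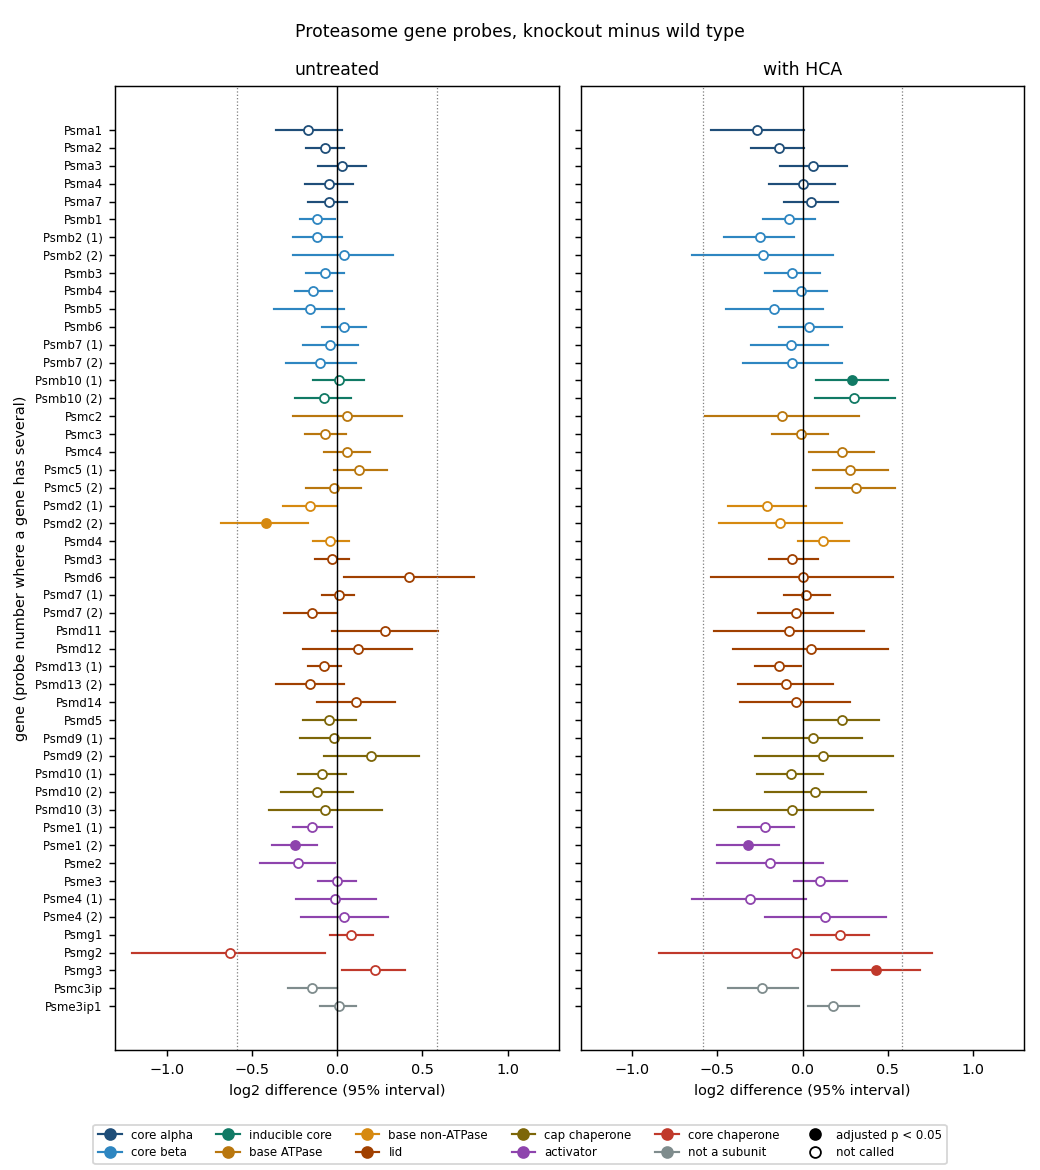
Log2 difference between KO and WT for each of the 50 proteasome probes, untreated (left) and with HCA (right), with 95% intervals. Filled points are probes called at an adjusted p under 0.05, colours are the parts of the complex, and dotted lines mark 1.5-fold. The untreated calls are probe 2 of Psme1 and probe 2 of Psmd2, both lower. The calls with HCA are Psmg3 and probe 1 of Psmb10, both higher, and probe 2 of Psme1, lower.

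These counts depended on a few arrays and on chip. Without WT untreated replicate 2 the untreated comparison gave 7 lower probes (14%, with 12.5% of all probes called), and with chips 2 and 3 alone it gave 7 lower and 1 higher (16%, with 18% of all). With each array centred on its median, or with no chip term, 0 proteasome probes were called in either genotype comparison. Fewer of all probes were called there too. Median centring called 166 untreated and 448 with HCA, and no chip term 188 and 830, against 1226 and 2125 in the main fit.

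The 20S core was measured by 14 probes of 12 constitutive genes, and 0 of them were called in any comparison, where 10.3% of all probes were called between untreated genotypes and 17.9% with HCA. Their untreated differences between KO and WT ran from -0.17 to 0.04, and with HCA from -0.27 to 0.06. At an unadjusted p under 0.05 limma gave 2 of the 14 without HCA (14.3%, against 25.4% of all probes) and 1 with HCA (7.14%, against 31.3%). The genes Psma5 and Psma6, which encode alpha ring subunits, were detected on 0 arrays, so the alpha ring rests on 5 genes. Those 5, Psma1, Psma2, Psma3, Psma4 and Psma7, differed by -0.17 to 0.03 untreated. On chips 1, 2 and 3 Psma1 was at 0.04, -0.45 and -0.31 untreated, and probe 1 of Psmb2 at 0.07, -0.31 and -0.30. With chips 2 and 3 alone both were called lower in untreated KO (limma adjusted p = 0.0207 and 0.012, with 18% of all probes called). Psmb2 probe 1 was called there with HCA too (-0.25, limma adjusted p = 0.0323). Psma1 was also called untreated without WT untreated replicate 2 (-0.24, limma adjusted p = 0.0348).

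The proteolytic subunits were among these constitutive genes. Psmb5 carries the chymotrypsin-like site. On untreated WT arrays its log2 level was 10.70 at the lowest, 10.88 at the median and 11.12 at the highest, and on untreated KO arrays 10.24, 10.76 and 11.07. With HCA it was 10.83, 10.94, 11.00 and 11.01 in WT and 10.82, 10.51, 10.74 and 11.05 in KO. The ranges overlapped in both pairs, and the KO array with the lowest value was replicate 4 of chip 1. The difference was -0.16 (SE 0.10, 95% interval -0.37 to 0.04, limma adjusted p = 0.309) untreated and -0.17 (SE 0.14, interval -0.45 to 0.12, limma adjusted p = 0.448) with HCA.

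Psmb6 is the caspase-like subunit. Its untreated level was 12.46, 12.86 and 12.92 (lowest, median, highest) in WT and 12.63, 12.90 and 13.01 in KO. With HCA the WT arrays stood at 12.63, 12.97, 12.89 and 12.92 and the KO arrays at 12.84, 12.89, 12.89 and 12.95. All 4 groups overlapped, and the lowest value of all was that of WT untreated replicate 2. The difference between genotypes was 0.04 (interval -0.09 to 0.17) untreated and 0.04 (interval -0.14 to 0.23) with HCA.

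Psmb7, the trypsin-like subunit, had 2 probes. Probe 1 read 11.50, 12.12 and 12.33 in untreated WT and 11.83, 12.02 and 12.21 in untreated KO. With HCA it read 11.91, 12.28, 12.19 and 12.26 in WT and 12.06, 12.08, 12.03 and 12.19 in KO. WT untreated replicate 2 was again the lowest, and the groups overlapped. Probe 2 read 11.17, 11.88 and 12.17 in untreated WT, 11.60, 11.72 and 11.99 in untreated KO, 11.60, 11.75, 11.90 and 11.83 in WT with HCA, and 11.69, 11.57, 11.74 and 11.83 in KO with HCA. The untreated differences were -0.04 (interval -0.20 to 0.12) and -0.10 (interval -0.30 to 0.11). Without WT untreated replicate 2, probe 2 was called lower in untreated KO (-0.20, SE 0.06, limma adjusted p = 0.0357). Residuals of both Psmb7 probes moved together over the 24 arrays (r = 0.85).

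Of the inducible core genes, Psmb8 and Psmb9 (beta5i and beta1i) and the thymus-specific Psmb11 were detected on 0 of 24 arrays, so the inducible set was represented by Psmb10 alone. Probe 1 of Psmb10 read 8.67, 9.17 and 9.72 (lowest, median, highest) on untreated WT arrays and 8.66, 9.15 and 9.69 on untreated KO arrays. With HCA it read 8.34, 8.50, 8.57 and 8.71 in WT and 8.70, 8.77, 9.07 and 8.73 in KO. The untreated groups covered nearly the same range, and with HCA the ranges met, with the highest WT array at 8.71 and the lowest KO array at 8.70.

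With HCA, Psmb10 probe 1 was higher in KO by 0.29 (SE 0.10, interval 0.08 to 0.50, 1.22-fold, limma adjusted p = 0.0498), by 0.31 on chip 2 and 0.26 on chip 3. Probe 2 differed by 0.30 (SE 0.11, interval 0.07 to 0.54, limma adjusted p = 0.07) and was not called. Its levels with HCA were 8.01, 8.54, 8.54 and 8.67 in WT and 8.55, 8.74, 8.77 and 8.92 in KO, and its untreated levels were 8.58, 8.88 and 9.25 in WT and 8.58, 8.80 and 9.04 in KO. The adjusted p of probe 1 was close to the threshold, and leaving out 1 array at a time kept the call in 6 of 24 cases. Eif2s3y, a Y-linked gene, was detected on all 4 KO arrays with HCA and on 2 of the 4 WT arrays with HCA, and with its level as a covariate the call was lost (0.30, limma adjusted p = 0.0754).

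Psmb10 also had some of the lowest values of the response to HCA in WT. There HCA minus untreated was -0.30 (SE 0.09, interval -0.49 to -0.10, limma adjusted p = 0.148) for probe 1 and -0.33 (SE 0.11, interval -0.55 to -0.11, limma adjusted p = 0.167) for probe 2, and neither was called. In KO the same differences were -0.02 (interval -0.22 to 0.17) and 0.06 (interval -0.17 to 0.28). The difference of the responses, KO minus WT, was 0.28 and 0.39, with limma adjusted p of 0.403 and 0.283. The 2 probes varied together over the arrays (residual r = 0.53), and the WT response, the difference of the responses and the genotype difference with HCA use the same WT arrays with HCA.

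The 19S cap was measured by 17 probes of 13 genes besides Psmd8. Of these, probe 2 of Psmd2 was called between untreated genotypes, and no cap probe was called in another comparison. Of all probes 10.3% were called between untreated genotypes and 17.9% with HCA. The cap ATPases, which unfold the substrate and thread it into the core, had 5 probes of 4 genes. Their untreated differences were -0.07 to 0.13, and with HCA -0.12 to 0.31. Psmc6 was detected on 2 arrays and so was not among them. With HCA the highest values were those of Psmc5, at 0.28 (SE 0.11, interval 0.06 to 0.50) and 0.31 (SE 0.11, interval 0.08 to 0.54) for its probes, and of Psmc4 at 0.23 (SE 0.09, interval 0.04 to 0.42). Their limma adjusted p were 0.0666, 0.0566 and 0.0798, so none was called. All 4 KO arrays with HCA nevertheless lay above all 4 WT arrays with HCA for these 3 probes. Such separation was seen for 6 probes higher (that of Psme3ip1 among them) and 3 lower, 9 of the 50 in all, while 20.6% of all probes separated the groups with HCA.

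Psmd2 binds ubiquitin-like domains at the base of the cap. Its probe 2 read 6.97, 7.13 and 7.58 in untreated WT (lowest, median, highest), 5.84, 6.76 and 7.52 in untreated KO, 6.67, 6.74, 6.94 and 6.62 in WT with HCA, and 6.71, 6.41, 6.78 and 6.55 in KO with HCA. This was a dim probe, detected on 23 arrays, and the array where it was not detected was the lowest, an untreated KO array of chip 3. The untreated groups overlapped through chip 1. The difference was -0.42 (SE 0.12, interval -0.68 to -0.17, limma adjusted p = 0.0313), and it was -0.06 on chip 1, -0.59 on chip 2 and -0.98 on chip 3. The call was kept in 16 of 24 cases when 1 array was left out, and lost without any 1 of WT replicates 5 to 8 or KO replicates 4, 6, 7 and 8. The size was -0.23 with neqc's background correction and -0.22 with the deposited values, both called.

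The test of chip 1 against chips 2 and 3 gave 0.72 for this probe (limma adjusted p = 0.0353). It was the only one of the 50 called there, with 4.16% of all probes called. The brighter probe 1 of Psmd2 differed by -0.16 (SE 0.08, limma adjusted p = 0.206) and was not called, at -0.02, -0.23 and -0.37 on chips 1, 2 and 3. With HCA the probes differed by -0.21 and -0.13, neither called.

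The lid, whose Psmd14 subunit cleaves ubiquitin chains from the substrate, had 9 probes of 7 genes and 0 calls in any comparison, beside 10.3% and 17.9% of all probes called between genotypes. Its untreated differences were -0.16 to 0.42 and those with HCA -0.14 to 0.05. The value of 0.42 belonged to Psmd6 (SE 0.18, interval 0.04 to 0.80, limma adjusted p = 0.153), a dim probe detected on 16 arrays. Probe 2 of Psmd13 was at 0.07, -0.46 and -0.32 untreated on chips 1, 2 and 3. With chips 2 and 3 alone it was called lower in untreated KO (-0.39, limma adjusted p = 0.0114). Without WT untreated replicate 2 it was called too (-0.24, limma adjusted p = 0.042), as was probe 2 of Psmd7 (-0.21, limma adjusted p = 0.0419). The probes of the cap assembly chaperones Psmd5, Psmd9 and Psmd10 numbered 6. They differed by -0.12 to 0.20 untreated and -0.07 to 0.23 with HCA. Of these 6 probes 0 were called, beside the same 10.3% and 17.9% of all probes, and so small a set could hold 0 calls at those shares.

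The activators were measured by 6 probes of 4 genes. Psme1 and Psme2 encode the alpha and beta subunits of PA28, the interferon-responsive activator, Psme3 encodes its nuclear relative PA28 gamma, and Psme4 encodes PA200. Probe 2 of Psme1 was lower in KO both without and with HCA. The other activator probes were not called in any of the 5 comparisons.

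On untreated arrays Psme1 probe 2 read 10.14, 10.54 and 10.75 (lowest, median, highest) in WT and 9.92, 10.23 and 10.55 in KO. With HCA it read 10.10, 10.47, 10.41 and 10.48 in WT and 10.10, 9.82, 9.99 and 10.27 in KO. On each of the 3 chips every untreated KO array lay below every untreated WT array of that chip, while the pooled ranges overlapped because chip 1 read higher. The difference was -0.25 (SE 0.06, interval -0.38 to -0.12, 1.19-fold, limma adjusted p = 0.0127) untreated, at -0.22, -0.29 and -0.29 on the 3 chips. With HCA it was -0.32 (SE 0.09, interval -0.50 to -0.14, 1.25-fold, limma adjusted p = 0.0143), at -0.33 on chip 2 and -0.32 on chip 3.

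Probe 1 of Psme1, which is brighter, went the same way with smaller values and was not called. It read 10.76, 11.04 and 11.28 in untreated WT, 10.52, 10.89 and 11.17 in untreated KO, 10.62, 10.94, 10.88 and 10.96 in WT with HCA, and 10.53, 10.55, 10.63 and 10.83 in KO with HCA. The difference was -0.15 (SE 0.06, interval -0.26 to -0.03, limma adjusted p = 0.0918) untreated, at -0.12, -0.19 and -0.16 on the chips. With HCA it was -0.22 (SE 0.08, interval -0.38 to -0.05, limma adjusted p = 0.0623). Residuals of the probes correlated at r = 0.54 over 24 arrays. Without HCA the call of probe 2 was kept when any 1 array was left out. With HCA it was lost without WT replicate 2 (-0.25, limma adjusted p = 0.0625), KO replicate 2 (-0.27, 0.061) or KO replicate 3 (-0.27, 0.0622).

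Psme2 had values of the same sign that did not pass the test. It read 8.71, 9.01 and 9.46 in untreated WT, 8.39, 8.80 and 9.38 in untreated KO, 8.42, 8.79, 8.95 and 8.92 in WT with HCA, and 8.49, 8.31, 8.92 and 8.61 in KO with HCA. The difference was -0.23 (SE 0.11, interval -0.45 to -0.01, limma adjusted p = 0.169) untreated and -0.19 (SE 0.15, interval -0.50 to 0.12, limma adjusted p = 0.424) with HCA.

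Psme3 showed no such offset. It read 9.92, 10.17 and 10.37 in untreated WT, 10.05, 10.17 and 10.27 in untreated KO, 9.96, 10.01, 10.15 and 10.26 in WT with HCA, and 10.16, 10.04, 10.24 and 10.35 in KO with HCA. The groups overlapped throughout, and the differences were 0.00 (interval -0.11 to 0.11) untreated and 0.10 (interval -0.05 to 0.26) with HCA.

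Probe 1 of Psme4 read 8.76, 9.71 and 9.89 in untreated WT, 9.24, 9.56 and 9.84 in untreated KO, 9.86, 9.79, 9.98 and 9.99 in WT with HCA, and 9.62, 9.55, 9.47 and 9.71 in KO with HCA. With HCA all 4 KO arrays lay below all 4 WT arrays, but the difference of -0.31 (SE 0.16, interval -0.65 to 0.02, limma adjusted p = 0.189) was not called. The untreated difference was -0.01 (interval -0.24 to 0.23), made of 0.25 on chip 1, -0.36 on chip 2 and -0.15 on chip 3. With chips 2 and 3 alone this probe was called lower in KO untreated (-0.26, SE 0.08, limma adjusted p = 0.036). It was called there with HCA too (-0.31, SE 0.08, limma adjusted p = 0.0122). In that fit 18% of all probes were called untreated and 19.1% with HCA. The lowest untreated array was WT replicate 2. Probe 2 of Psme4 was detected on 4 arrays and differed by 0.04 and 0.13.

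**Figure D2:**
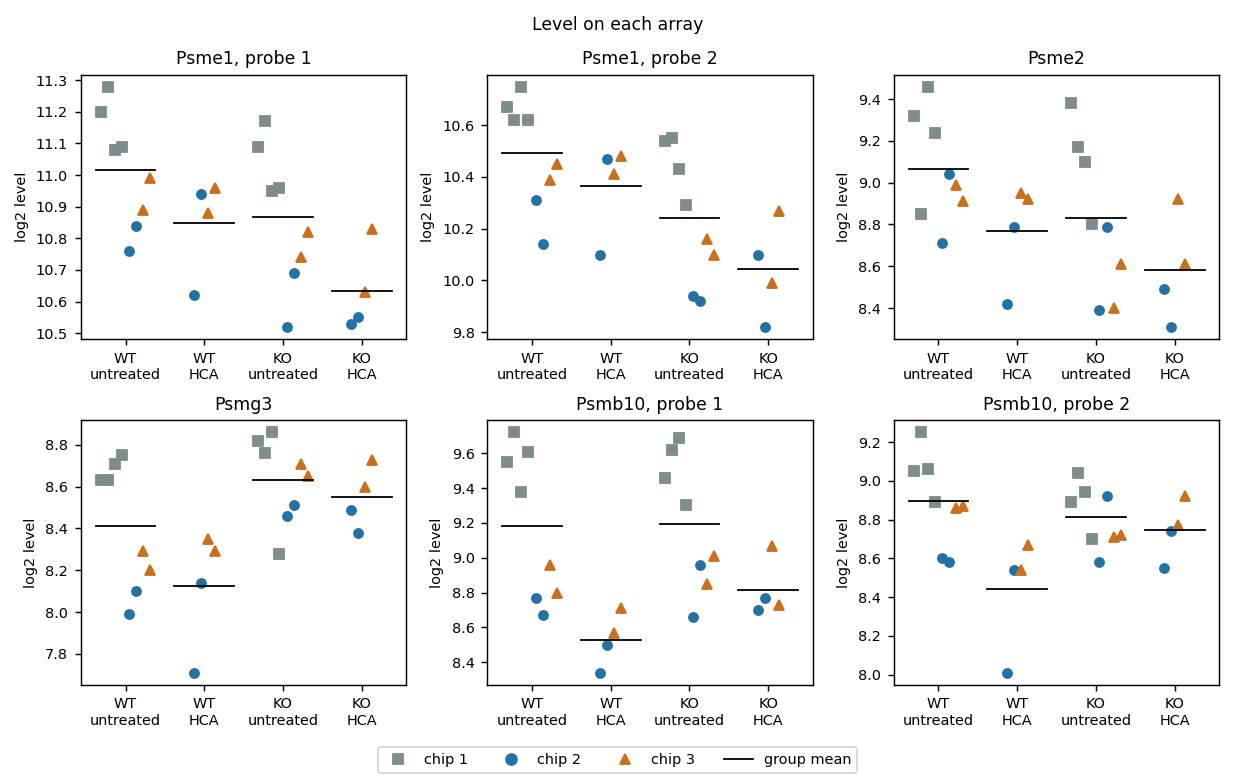
Log2 level on every array for both Psme1 probes, Psme2, Psmg3 and both Psmb10 probes, by group, with chips as symbols and group means as lines. Chip 1 reads higher than chips 2 and 3 for most of these probes, and it holds untreated arrays alone, so group means are not to be compared across treatment without the chip term. Within chips 2 and 3, Psme1 probe 2 is lower and Psmg3 higher in untreated KO than in untreated WT.

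The promoters of Psme1, of Psmg3 and of the uncalled catalytic gene Psmb5 are shown for comparison. Psme1 probe 2 was lower in KO, and Psmg3 was higher in KO than in WT among the arrays with HCA. They are RefSeq windows on GRCm38.p6, from 250 bases before to 50 bases after the start, written on the strand of the gene. Capitals mark a match to the core of the interferon-stimulated response element (GAAA, any 2 bases, GAAA) in Psme1, read on the opposite strand, and to TGACNNNGC, the core of the antioxidant response element, in Psmb5. The Psmg3 window held none of the 5 motifs searched. The Psme1 window is chr14:55578244-55578543 on the plus strand, that of Psmg3 chr5:139826845-139827144 on the minus strand, and that of Psmb5 chr14:54617946-54618245 on the minus strand.
Psme1: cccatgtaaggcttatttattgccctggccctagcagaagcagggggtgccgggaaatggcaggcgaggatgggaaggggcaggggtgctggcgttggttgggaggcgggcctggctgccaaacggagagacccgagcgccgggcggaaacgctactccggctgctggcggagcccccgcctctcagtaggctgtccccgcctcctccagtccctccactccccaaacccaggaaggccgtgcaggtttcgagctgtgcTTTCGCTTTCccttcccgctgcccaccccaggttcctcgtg
Psmg3: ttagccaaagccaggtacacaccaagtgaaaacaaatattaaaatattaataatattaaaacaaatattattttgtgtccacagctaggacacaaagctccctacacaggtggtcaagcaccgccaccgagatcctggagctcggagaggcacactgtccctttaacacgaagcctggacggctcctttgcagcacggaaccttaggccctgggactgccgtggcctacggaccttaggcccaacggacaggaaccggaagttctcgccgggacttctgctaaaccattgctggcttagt
Psmb5: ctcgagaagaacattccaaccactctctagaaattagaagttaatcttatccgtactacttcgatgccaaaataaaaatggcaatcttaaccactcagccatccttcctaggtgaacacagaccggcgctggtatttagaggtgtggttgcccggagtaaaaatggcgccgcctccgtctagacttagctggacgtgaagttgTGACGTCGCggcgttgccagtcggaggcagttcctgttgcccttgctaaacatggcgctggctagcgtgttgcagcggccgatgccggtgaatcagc

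Motifs were searched on both strands in the 46 promoter windows of the 42 genes in the RefSeq table whose symbols met the rule, and in all 32851 windows of the same length. Of the 42 genes, 38 had a probe found by the rule and 4 (Psmc1, Psmd1, Psme2b and Psmg4) had none, and Psmc3ip and Psme3ip1 were included. The interferon-stimulated response element core was present in 5 of the 46 (10.9%, against 3.44% of all), those of Psmd4, Psmd9, Psmb3, Psmg4 and Psme1. This motif was added after the data were seen. Of these genes Psmd4, Psmd9 and Psmb3 were called in no comparison, and Psmg4 had no probe. TGACNNNGC was present in 6 (13%, against 12.4%), including Psmb5 and Psmb6. TGATGNAA, the core of the C/EBP-ATF response element to which ATF4 binds, was present in 1, that of Psmd13 (2.17%, against 3.97%). CCAAT was present in 16 (34.8%, against 37.4%), and TTCNNNGAA, the core of the gamma-activated site, in 3 (6.52%, against 8.3%). These are matches of letters in a short window and not binding sites.

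The core assembly chaperones Psmg1, Psmg2 and Psmg3 were each measured by 1 probe. Psmg3 read 7.99, 8.46 and 8.75 (lowest, median, highest) in untreated WT and 8.28, 8.68 and 8.86 in untreated KO. With HCA it read 7.71, 8.14, 8.35 and 8.29 in WT and 8.49, 8.38, 8.60 and 8.73 in KO. All 4 KO arrays with HCA lay above all 4 WT arrays with HCA. The difference with HCA was 0.43 (SE 0.13, interval 0.17 to 0.69, 1.35-fold, limma adjusted p = 0.0203), at 0.51 on chip 2 and 0.35 on chip 3.

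Without HCA the Psmg3 difference was 0.22 (SE 0.09, interval 0.03 to 0.40, limma adjusted p = 0.121) and was not called. It was 0.00 on chip 1 and 0.44 on each of chips 2 and 3, and with chips 2 and 3 alone it was called (0.44, SE 0.09, limma adjusted p = 0.00384, with 18% of all probes called in that fit). With HCA the call was lost without WT replicate 1 (0.33, limma adjusted p = 0.092), KO replicate 1 (0.41, 0.0531) or KO replicate 4 (0.41, 0.05). Psmg1, the partner of Psmg2, differed by 0.08 (SE 0.06, limma adjusted p = 0.392) untreated and 0.22 (SE 0.08, limma adjusted p = 0.0686) with HCA, and was not called.

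Psmg2 had a wide spread. On chip 1 the KO arrays read 6.56, 8.42, 6.82 and 8.34, and the WT arrays 8.61, 8.67, 8.26 and 8.82. Within each group of chips 2 and 3 it also varied, from 7.75 to 9.01 in KO with HCA and from 8.05 to 9.05 in WT with HCA. The untreated difference of -0.63 (SE 0.27, interval -1.20 to -0.07, limma adjusted p = 0.146) was not called, and it was -1.05 on chip 1, -0.19 on chip 2 and -0.22 on chip 3.

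Treatment with HCA was followed by no called change of a proteasome probe in either genotype. In WT 0 of 50 probes were called by limma, with 1.16% of all probes called, and 3 had an unadjusted p under 0.05 (6%, against 12.9% of all). In KO 0 of 50 were called, with 0.0506% of all probes called, and 1 had an unadjusted p under 0.05 (2%, against 8.08% of all). The differences ran from -0.33 to 0.27 in WT and from -0.27 to 0.29 in KO. The KO value of 0.29 is that of Psmg2, from the fit over all 3 chips. Within chips its KO means went from 8.59 untreated to 8.72 with HCA on chip 2 and from 8.36 to 8.38 on chip 3. The interval lay within 1.5-fold for 47 probes (94%) in WT and 45 (90%) in KO, against 83% and 85% of all probes. The difference of the responses between genotypes was called for 0 of 50 probes, with 0.481% of all probes called, and 4 had an unadjusted p under 0.05 (8%, against 11.1% of all).

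**Figure D3:**
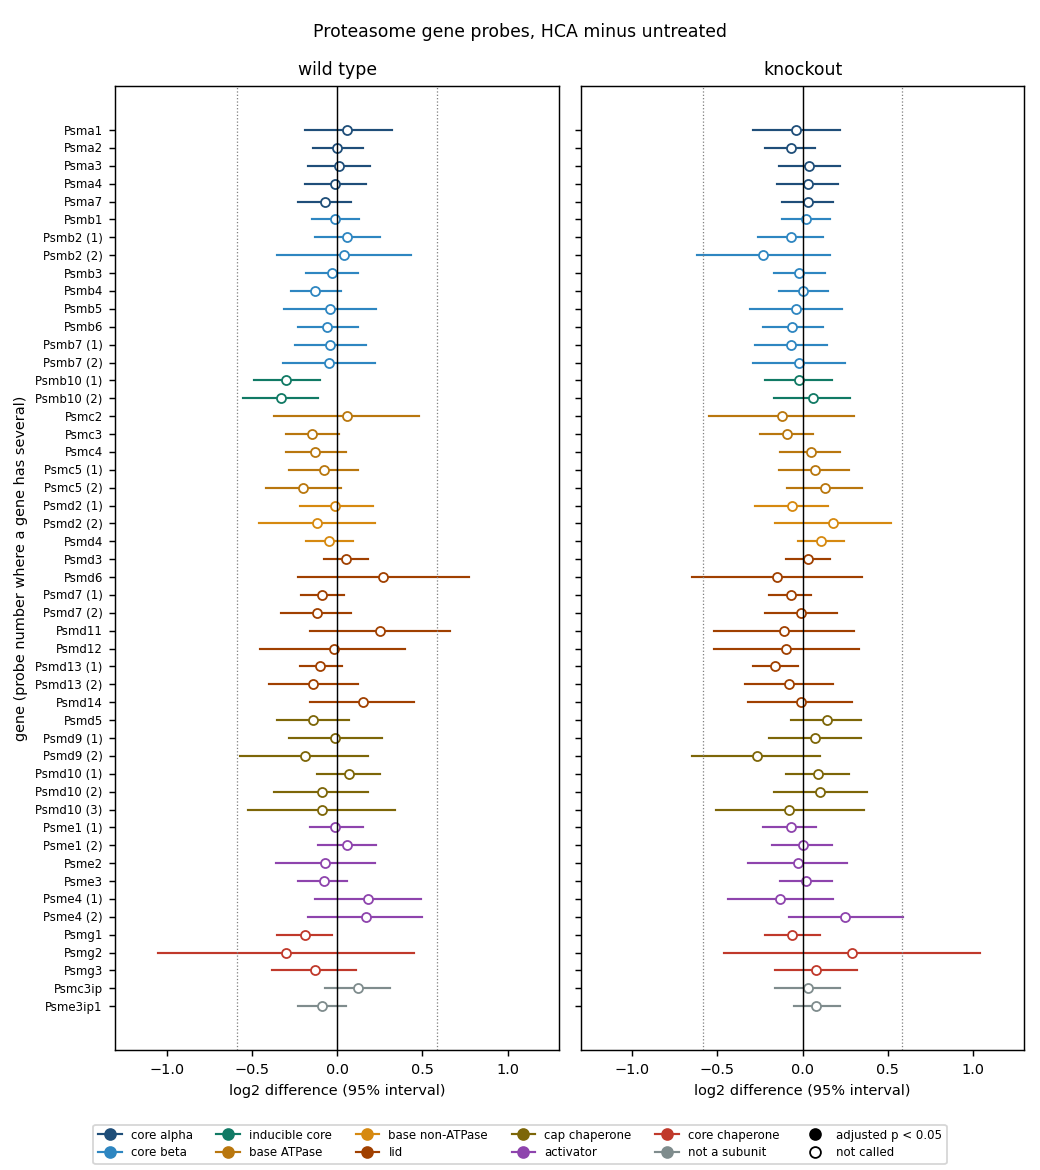
Log2 difference between HCA and untreated arrays for each of the 50 proteasome probes, in WT (left) and KO (right), with 95% intervals. All points are open because 0 probes were called. The lowest WT values are those of the Psmb10 probes, at -0.30 and -0.33, and of Psmg2, at -0.30, and the widest intervals are those of Psmg2. The Psmg2 value is from the fit over all 3 chips, and within chips the WT means went from 8.78 untreated to 8.73 with HCA on chip 2 and from 8.58 to 8.46 on chip 3.

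In WT the HCA groups and untreated groups did not overlap for 2 of the 50 probes, probe 1 of Psmd13 and probe 2 of Psmd2, both lower with HCA, and 3.31% of all probes did not overlap. Chip 1 held no HCA array, so such a separation can include differences between chips. The WT arrays of chips 2 and 3 taken alone also did not overlap for these probes. Psmd2 probe 2 read 7.00, 7.13, 7.06 and 6.97 there untreated and 6.67, 6.74, 6.94 and 6.62 with HCA. Psmd13 probe 1 read 12.05, 12.07, 12.06 and 12.13 untreated and 11.82, 12.01, 11.98 and 11.98 with HCA. In the fit over all 3 chips the differences were -0.10 (SE 0.06, limma adjusted p = 0.549) for Psmd13 and -0.12 (SE 0.16, limma adjusted p = 0.818) for Psmd2. The genotype difference of chip 1 enters these fitted values through the chip term. In KO the HCA and untreated groups did not overlap for 0 probes, against 1.7% of all. Between untreated KO and WT this held for 0 probes, against 0.557% of all.

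**Figure D4:**
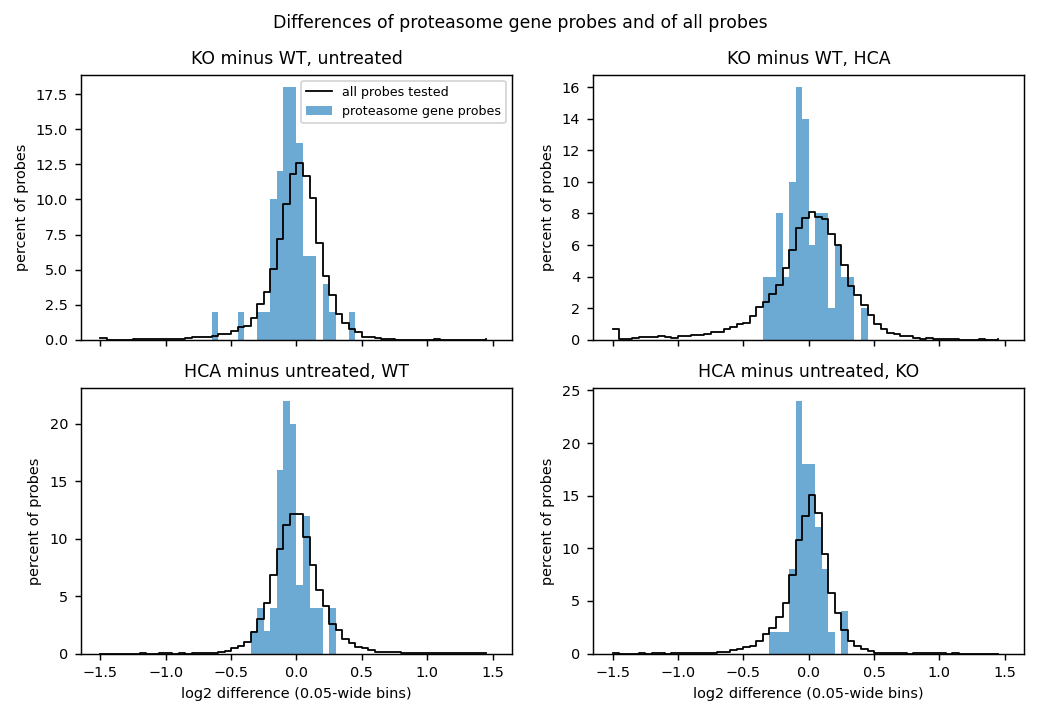
Share of probes in bins of the log2 difference, 0.05 wide, for the 50 proteasome probes (bars) and all 11847 tested probes (line), in 4 comparisons. Probes beyond the ends of the axis are counted in the last bins. The proteasome probes gather near 0, with medians of -0.05 and -0.04 between genotypes and -0.05 and -0.02 with HCA.

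The spread within groups was described by residuals after group and chip. The median residual SD was 0.15 over the 50 probes and 0.20 over all probes. Taking 1 probe a gene, the residuals of the 12 core genes had a mean pairwise correlation of 0.13 over the 24 arrays, the 13 cap genes 0.00 and all 38 genes 0.04, with 0.00 over all probes. These values share arrays and normalization and are a description. Probes of 1 gene did not always vary together, since r was 0.52 for Psmd2 and 0.46 for Psmd13 but -0.05 for Psmc5, -0.11 for Psmd7 and -0.36 for Psmd9.

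Psmd8 encodes a lid subunit, and its values are given without a test because it was set apart for them. On chip 1 the untreated KO arrays read 9.06, 9.08, 9.16 and 9.23, while the untreated WT arrays read 11.65, 11.65, 11.50 and 12.30. The raw signals there were 1022.9 to 1159.1 in KO and 5108.7 to 9885.2 in WT. On chips 2 and 3 the untreated KO arrays read 12.16, 12.18, 12.09 and 12.09, and the untreated WT arrays 12.09, 11.34, 11.36 and 12.14. The KO arrays were thus far lower than WT on chip 1 and at or near the top of the WT range on the other chips. KO minus WT was -2.64 on chip 1, 0.45 on chip 2 and 0.34 on chip 3.

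With HCA, Psmd8 read 12.02, 11.39, 11.40 and 12.11 in WT and 12.17, 12.26, 12.24 and 12.19 in KO. KO minus WT was 0.51 on chip 2 and 0.46 on chip 3. The 8 WT arrays of chips 2 and 3 therefore lay at 2 levels, at 11.34 to 11.40 and at 12.02 to 12.14, with none between. All KO arrays of chips 2 and 3 lay at 12.09 to 12.26.

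The level of Eif2s3y divided the arrays in part as Psmd8 did. The WT arrays of chips 2 and 3 at the lower Psmd8 level had Eif2s3y at 4.84 to 5.08, not detected, and those at the higher level had it at 8.55 to 9.99. The KO arrays had Eif2s3y at 4.95 to 5.08, not detected, on chip 1 and at 8.65 to 9.78 on chips 2 and 3. On chip 1 the WT arrays did not follow this, with Eif2s3y at 7.94, 4.98, 7.74 and 4.92 beside Psmd8 at 11.65, 11.65, 11.50 and 12.30. The part of the embryos' sex in the Psmd8 values was not tested.

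**Figure D5:**
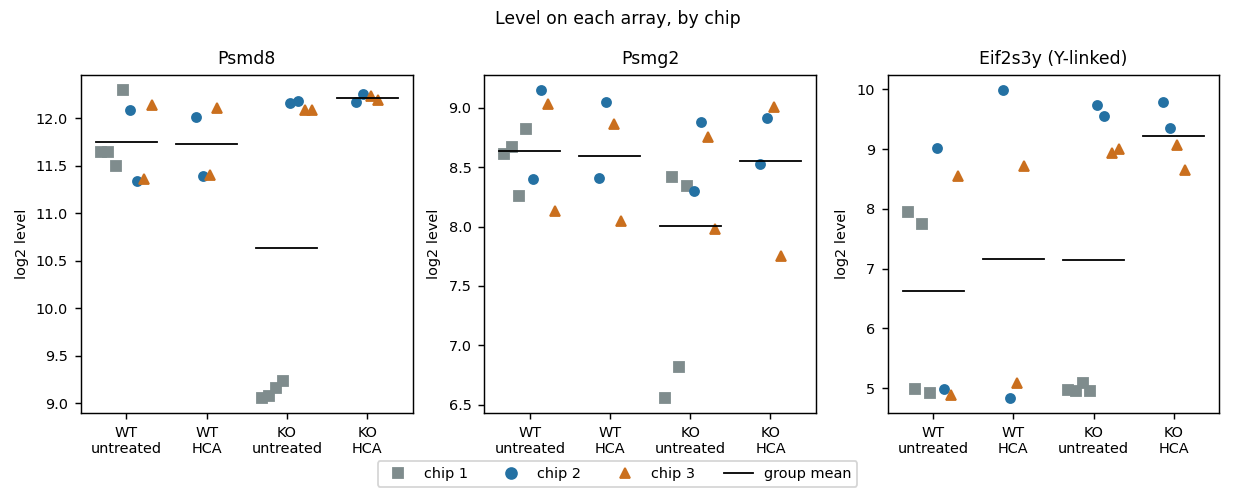
Log2 level of Psmd8, Psmg2 and Eif2s3y on every array, by group, with chips as symbols and group means as lines. Psmd8 is at 9.06 to 9.23 on the KO arrays of chip 1 and at 11.34 or above on all other arrays. Psmg2 is at 6.56 and 6.82 on 2 of the same KO arrays, and Eif2s3y is not detected on any of those 4.

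Other genes of the pathway were taken from lists. Of 7 tested genes that regulate or help to build the proteasome, 1 was called, Pomp, the maturation protein of the 20S core. It was lower in KO by -0.21 (SE 0.07, limma adjusted p = 0.0455) untreated and -0.33 (SE 0.09, limma adjusted p = 0.0171) with HCA. Of 7 tested genes of p97 and shuttle factors, which deliver substrates to the proteasome, 0 were called untreated, and 1 was lower with HCA, Vcp, the p97 ATPase (-0.37, SE 0.09, limma adjusted p = 0.00893). Beside the genotype counts of lists here and below, 10.3% of all tested probes were called untreated and 17.9% with HCA. A count of 1 in 7 is near those shares. Nfe2l1, which encodes NRF1, the factor that raises proteasome gene transcription when proteolysis falls short, was at 0.04 (SE 0.04, limma adjusted p = 0.614) untreated and lower in KO with HCA by -0.20 (SE 0.06, limma adjusted p = 0.0267). It was the only one of its list of 4 to be tested, and none of the ubiquitin and E1 genes was. None of these genes was called after HCA in either genotype.

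Of 3 tested genes of antigen processing, B2m, the light chain of MHC class I, was lower in KO by -0.45 (SE 0.09, limma adjusted p = 0.00512) untreated and -0.88 (SE 0.13, limma adjusted p = 0.000126) with HCA. Tapbp, which loads peptides onto MHC class I, was at 0.01 untreated and higher in KO with HCA by 0.53 (SE 0.12, limma adjusted p = 0.00331). Tap2 was not called. Tap1, H2-K1 and H2-D1 were detected on no array.

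Markers of other cells moved with genotype beside Psme1 and B2m. Of 6 microglia and macrophage markers, 4 were lower in KO untreated and 5 with HCA, and their summed linear level was 403 to 869 in untreated WT, 261 to 650 in untreated KO, 558 to 609 in WT with HCA and 251 to 327 in KO with HCA. All 3 tested astrocyte markers and all 4 markers of dividing cells were lower in KO in both comparisons, with Gfap and S100b detected on no array. The astrocyte sum was 2630 to 3765, 1756 to 3277, 2681 to 3213 and 1670 to 2066 in the same order of groups, and that of dividing cells 2311 to 3298, 1226 to 2715, 2160 to 2380 and 1109 to 1337. Lower in KO untreated and with HCA were 2 and 1 of 3 progenitor markers, 2 and 1 of 2 oligodendrocyte lineage markers, 1 and 2 of 3 meningeal markers and 0 and 1 of 1 pericyte marker. Of 6 neuronal markers 1 was higher in both, and with HCA 1 was lower. The part of these cells in the proteasome values was not tested.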

How the data were processed

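RNA of 24 samples was read on 24 arrays. Per the file headers, BeadStudio 1.5.1.3 gave the authors' deposited average signal, a linear intensity without normalization, for 24048 rows. Per the file headers it also gave a detection score, a fraction from 0 to 1, and the count of beads per probe. The authors also deposited log2 values, which per the submitters' processing notes used limma; quantile normalization of log2 signals gave them to within 5e-14 for 23983 probes. Another 120 columns belong to no sample described here and were not used. Groups come from sample titles.

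Probe symbols came from the platform annotation (20917 probes with 1 symbol, 1 with several, 3060 with none), and 20903 were matched to RefSeq. Signals were corrected by normexp, with background means of 87.2 to 136.7 and SDs of 16.3 to 28.2 read from the detection scores, then given an offset of 16, quantile-normalized and put on the log2 scale. Probes with a score above 0.95 on at least 4 arrays were kept. Limma 3.58.1 in R 4.3.3 (lmFit, eBayes) was fitted to 11847 probes with terms for group and chip, 18 residual and 3.69 prior degrees of freedom, and 5 contrasts, with Benjamini-Hochberg adjustment over all probes. The fit was tested on simulated data. The number of arrays limits the precision.

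Members, lists, classes and alternatives were chosen with earlier results of these data known. All members could be named; values by array were given for the catalytic, inducible and activator genes, Psmd8 and up to 10 called probes a comparison, and of other lists up to 4 called genes. Psmg2, Psmd6, Psmc4 and Psmc5 were given in more detail after their values were seen. Alternatives were another background correction, the deposited values, median centring, other detection filters, the brightest probe, other uses of chip, the replicate number, fewer groups, array weights and leaving out each array. Leaving out both arrays of weight under 0.5, the Eif2s3y level as a covariate, and the motifs of the interferon-stimulated response element and the gamma-activated site were added after seeing the data.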

Additional observations from a re-analysis of the deposited data

Results flagged for a closer look

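Over 60 groups of arrays of the catalytic, inducible and activator probes, Psmd8 and the called probes, 4 held an array far from the others. Chance gives about 1 in 20, for levels not adjusted for chip. The flags are not independent, because most fell on 1 array and the Psmb7 probes vary together (residual r = 0.85). WT untreated replicate 2 was the lowest for Psmb6 (12.46, next 12.76), for probe 1 of Psmb7 (11.50, next 11.97) and for probe 2 of Psmb7 (11.17, next 11.79). KO untreated replicate 1 was the highest for probe 2 of Psmb7 (11.99, next 11.79).

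The untreated difference between genotypes on chip 1 stood against that on chips 2 and 3 for Psmd8, which was set apart for it, and for 1 probe, the only one of the other 50 called in that test. Psmd8 was at -2.64 on chip 1 and at 0.40 as the mean of chips 2 and 3, with every KO array of chip 1 below its WT arrays; this difference between chips was not tested. For probe 2 of Psmd2, chip 1 minus chips 2 and 3 was 0.72 (limma adjusted p = 0.0353).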

How the results depend on the processing

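The proteasome probes called after HCA in WT, after HCA in KO and for the difference of these responses numbered 0 in all 40 alternatives of each. Few of all 11847 probes were called there either, 137, 6 and 57 in the main fit. With so few calls, 0 of 50 cannot show an absence of response. No called probe changed sign. Between untreated genotypes 2 probes were called. The count was 0 with median centring, with the brightest probe of each gene, with no chip term and with chip 1 or chip 2 alone. In the same order 166, 1105, 188, 34 and 223 of all probes were called, against 1226 in the main fit. The proteasome count was 1 with probes detected on all 24 arrays, with no filter and with chip 3 alone (1336, 941 and 319 of all probes called). It was also 1 with only the compared groups and with array weights (823 and 1008 of all probes called). It was 8 with chips 2 and 3 alone (16%, against 18% of all probes). Without the arrays of weight under 0.5 (WT untreated replicate 2 and WT HCA replicate 1) it was 8 too. Leaving out WT untreated replicate 2 alone gave 7 (14%, against 12.5% of all probes). With HCA 3 probes were called. The count was 8 with neqc (16%, against 19.3% of all probes) and with probes detected on all 24 arrays (19%, against 25.6%). It was 5 with the deposited values and with probes detected on 12 or more arrays (2243 and 2245 of all probes called, against 2125 in the main fit). It was 6 with chips 2 and 3 alone (12%, against 19.1%) and with array weights (2441 of all probes called). With only the compared groups it was 1 (1636 of all probes called). It was 0 with median centring, with no chip term and with chip 2 or chip 3 alone (448, 830, 332 and 383 of all probes called). With the replicate number as a block, 1 probe was called in each of these comparisons (682 of all probes called untreated and 1610 with HCA). Same-numbered arrays had residual correlations of -0.39 to -0.01 (8 pairs) and -0.11 to 0.1 (4 pairs). The arrays of every pair lay on the same chip, where residuals after the chip term sum to 0. These correlations therefore cannot show whether same-numbered arrays share a culture or animal, and the labels do not say. The block could not be fitted for the responses to HCA. Leaving out 1 array gave 1 to 7 probes untreated and 1 to 4 with HCA. The 7 came without WT untreated replicate 2, the untreated 1 without WT replicates 5 to 8 or KO replicates 6, 7 or 8, and the 1 with HCA without KO replicate 3. The untreated calls over all probes, 1226 in the main fit, moved too. They numbered 1486 without WT replicate 2, 839 without WT replicate 5 and 907 without KO replicate 6. Without KO replicate 5 they numbered 769, and 2 proteasome probes were called. Psme1 probe 2 kept its untreated call in 36 of 41 alternatives and that with HCA in 32 of 40, Psmg3 in 32 of 41, probe 2 of Psmd2 in 24 of 40 and Psmb10 in 12 of 41. The cause was not tested, though a single chip holds fewer arrays.

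Median centring called 47 probes higher and 119 lower of all tested between untreated genotypes, against 573 and 653, and 26 and 422 with HCA, against 1067 and 1058. With chips 2 and 3 alone the split was 1042 and 1094 untreated. No chip term gave 52 and 136 untreated and 342 and 488 with HCA. Dim probes such as Psmd2 probe 2 and Psmd6 are limited by signal close to background. Chip 1 holds no HCA array, and through the chip term its genotype difference enters the fitted responses to HCA. The Eif2s3y level as a covariate left 2 probes called in each genotype comparison, and over all probes 1077 untreated and 1597 with HCA, against 1226 and 2125.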
